A study of Mus musculus with 12 samples.

Results

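Fibroblast growth factor (FGF) signalling was described in sorted mesenchymal cells of the mouse uterus through 36 genes: 22 genes of the Fgf family, 5 receptor genes and 9 genes that restrain or report the signal downstream of the receptors. A gene was taken when its whole symbol, looked up by Ensembl identifier, was Fgf followed by digits or stood in a fixed list of Fgfr, Spry, Spred, Etv and Dusp6 symbols, and the deposited count tables hold 47729 genes in all. Spry3 was not analysed here, because its symbol was not matched to an identifier. Cells were taken by enzymatic digestion and fluorescence-activated sorting from healthy uteri of cycling female Pdgfrb-BAC-eGFP mice, in which an artificial chromosome carrying Pdgfrb regulatory sequence drives enhanced green fluorescent protein in mural and stromal cells. The 6 GFPtotal libraries, which the labels also call Naive, hold all GFP-positive cells, that is, GFPhigh perivascular cells together with GFPlow stromal fibroblasts. The 6 GFPlow libraries, also called Stromal, hold the GFPlow cells alone. All 12 libraries share strain, sex, tissue and health, and the labels give no age, treatment or stage of the cycle. GFPtotal is a mixture in proportions not given in the sources used here, so it is no pure perivascular population. The series used 12 mice and no label ties a library to a mouse, so a p-value speaks of the spread among libraries, which may be partly technical.

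FGF ligands bind heparan sulphate chains and a receptor tyrosine kinase together, and the receptor passes the signal through the adaptor FRS2 to RAS and the kinase ERK. ERK then raises the transcription factors ETV4 and ETV5 and a set of inhibitors, the Sprouty and Spred proteins and the phosphatase DUSP6, which damp the same pathway. In the uterus, FGF7 and FGF10 from stroma act on epithelium through the IIIb form of FGFR2, and FGF2 is known as a growth factor for stromal and vascular cells.

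The GFPtotal libraries held 12631266 to 14950639 counts each, the GFPlow libraries 14339804 to 18425596. Mitochondrial genes took 32.4% to 49.0% of the counts in GFPtotal and 35.1% to 45.7% in GFPlow libraries. Summed pericyte markers stood at 942 to 1671 CPM (counts scaled to a common library total) in GFPtotal, against 12.2 to 31.2 CPM in GFPlow libraries (exact two-sided permutation test, p = 0.00216, the smallest the design allows). Summed fibroblast markers stood at 20396 to 35772 CPM in GFPtotal, against 14211 to 22161 CPM in GFPlow libraries (p = 0.00866, same exact permutation test). Col1a1 and Col3a1 made up most of this sum. Of the 10 fibroblast markers, 1 was called higher in GFPtotal and 0 lower. Dcn, Lum, Pdgfra, Col1a1, Col6a3, Mfap4, Dpt, Fbln1 and Gsn overlapped between the groups. Col3a1 did not, at 8338 CPM or more in GFPtotal and 7840 CPM or less in GFPlow. Smooth muscle markers summed to 398 to 757 CPM in GFPtotal, against 199 to 376 CPM in GFPlow libraries (p = 0.00216, same exact permutation test). Mylk made up most of the GFPlow sum, and it overlapped between the groups, as did Des, Smtn, Tagln and Cnn1. Acta2, Myh11, Actg2, Myocd and Lmod1 did not overlap. Acta2 was 35.7 to 95.6 CPM in GFPtotal, against 0.566 to 5.16 CPM in GFPlow. Myh11 was 73.6 to 182 CPM in GFPtotal, against 0.316 to 9.07 CPM in GFPlow. Of the 8 smooth muscle markers tested, 4 were called higher in GFPtotal and 0 lower. The sums of the endothelial markers were 33.5 to 59.8 CPM in GFPtotal, against 39.6 to 60.2 CPM in GFPlow libraries. Of the 4 endothelial markers tested, 0 were called higher in GFPtotal and 1 lower. Cdh5 and Kdr reached higher in GFPlow, Tek and Emcn reached higher in GFPtotal, and each of these overlapped. Tie1, Cldn5 and Egfl7 were under 1 CPM throughout. The sums of the epithelial markers were 2.23 to 13.2 CPM in GFPtotal, against 7.71 to 14.7 CPM in GFPlow, with Cldn3, Cldn4 and Foxa2 under 1 CPM throughout. Leukocyte, mesothelial and glial sums were at most 4.99 CPM in GFPtotal and at most 12.9 CPM in GFPlow libraries. GFPtotal 3, 4 and 5 stood apart from all other libraries on the first principal component, which held 34.0% of the variance. For GFPlow 6, the file header names its input alignment with a GFPtotal-type code. Its pericyte marker sum of 26.1 CPM lies among the GFPlow libraries. Its smooth muscle marker sum (376 CPM), Rgs5 (10.9), Kcnj8 (1.575), Acta2 (5.16) and Myh11 (9.07) were the highest of GFPlow, yet below every GFPtotal library. Abcc9, Gucy1a1 and Mylk were higher in another GFPlow library. GFPlow 6 was kept in the group its label gives.

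Of the 36 genes, 17 passed the filter on low counts, 3 were called higher in GFPtotal and 0 lower in GFPtotal (edgeR quasi-likelihood test, Benjamini-Hochberg adjusted over 14523 genes, threshold 0.05). The 3 are the ligand gene Fgf1 and the feedback genes Spred1 and Dusp6. Across all genes tested, 4.55% were called higher (661 genes) and 0.854% lower (124 genes). Scaled by total counts alone, 3.48% of genes were called higher (505) and 1.77% lower (257), and of the members again 3 higher and 0 lower. At an unadjusted p under 0.05, 8 of the 17 passed, all higher in GFPtotal, against 19.9% of all genes in either direction. DESeq2 called 5 higher, with 7.12% of all genes called higher by DESeq2, and limma-voom 4, with 4.65% called higher; both called 0 lower. The median log2 fold change of the 17 was 0.56, with 12 positive and 5 negative, against −0.000599 over all genes. The groups did not overlap in 3 of the 17, Fgf1, Spred1 and Spry1, each higher in GFPtotal, where 2.86% of all genes lay wholly above. With GFPtotal 3, 4 and 5 left out, 0 of the 36 were called (1.56% of all genes higher), with GFPlow 6 left out as well again 0 (1.58%), and 3 were called with GFPlow 6 alone left out (3.62%). The 17 are those with enough counts to test and do not stand for all 36.

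**Figure D1:**
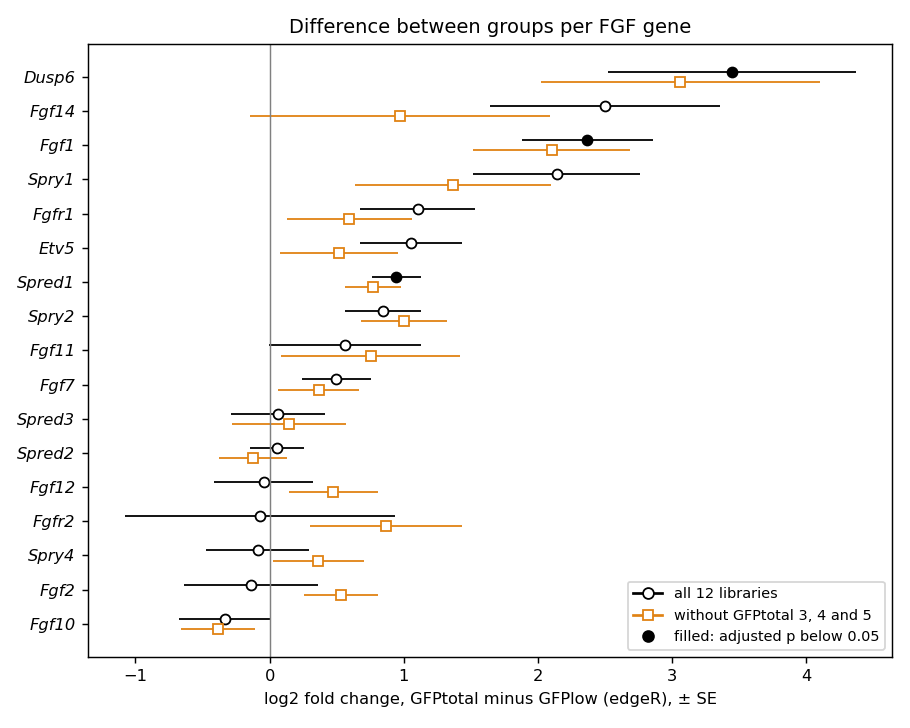
Log2 fold change (GFPtotal over GFPlow) of the 17 FGF pathway genes that passed the filter, sorted by size, with bars of 1 SE from edgeR. Black circles use all 12 libraries, filled where the adjusted p is below 0.05, and orange squares leave out GFPtotal 3, 4 and 5. Fgf1 (2.37), Spred1 (0.94) and Dusp6 (3.44) passed the adjusted threshold, while Fgf2 (−0.14) and Fgfr2 (−0.07) lie near 0 and move to 0.53 and 0.87 without GFPtotal 3, 4 and 5.

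The promoters of the 2 called feedback genes are shown because Dusp6 and Spred1 both restrain the RAS and ERK cascade and both were called higher in GFPtotal. They run from 250 bases before to 50 bases after the RefSeq start site (GRCm38.p6), on the plus strand, at chr10:99262981-99263280 for Dusp6 and chr2:117120821-117121120 for Spred1. The whole Spred1 window lies before base 117121374, where the gene as counted here starts. Capitals mark CGGAAG, the core of the site that ETS transcription factors such as ETV4 and ETV5 bind, searched on both strands, where the minus strand match reads CTTCCG.
Dusp6 promoter: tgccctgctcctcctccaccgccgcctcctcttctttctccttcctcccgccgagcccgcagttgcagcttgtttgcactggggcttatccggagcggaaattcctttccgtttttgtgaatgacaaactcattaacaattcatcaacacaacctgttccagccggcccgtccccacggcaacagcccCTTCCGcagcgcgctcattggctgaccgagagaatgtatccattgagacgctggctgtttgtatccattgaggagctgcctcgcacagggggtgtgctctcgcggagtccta
Spred1 promoter: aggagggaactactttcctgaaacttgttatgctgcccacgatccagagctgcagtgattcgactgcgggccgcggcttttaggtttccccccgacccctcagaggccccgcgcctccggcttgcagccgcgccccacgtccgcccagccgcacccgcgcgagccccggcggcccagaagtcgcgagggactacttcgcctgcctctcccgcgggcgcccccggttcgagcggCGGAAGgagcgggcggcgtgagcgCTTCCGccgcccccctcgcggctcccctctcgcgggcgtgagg
Dusp6 held 1 match and Spred1 held 2, and the motif was chosen after the sequences had been seen. The same motif stood in 6 of the 27 members with a promoter entry, namely Dusp6, Spred1, Spred2, Fgf12, Fgf23 and Fgfrl1, and in 16.9% of all 32851 mouse promoters. The 27 are counted by gene, with a match in any entry of the gene, and the share of all promoters by entry, so these are unlike measures. A match describes the letters in the window and shows no binding, and the longer motif ACCGGAAGT stood in 0 of the 27 and in 1.10% of all promoters.

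Among the 15 genes for secreted ligands, 4 passed the filter, Fgf1, Fgf2, Fgf7 and Fgf10, and Fgf1 alone was called. Fgf1 encodes acidic FGF, which binds all FGF receptors and lacks a signal peptide. Its level was 13.1, 8.99, 12.9, 16.8, 19.3 and 13.6 CPM in GFPtotal 1 to 6, against 0.632, 1.92, 6.60, 3.42, 3.06 and 0.760 CPM in GFPlow 1 to 6. Every GFPtotal library lay above every GFPlow library, and GFPlow 3 came closest to the GFPtotal range. Fgf1 averaged 14.1 ± 3.55 CPM in GFPtotal, against 2.73 ± 2.21 CPM in GFPlow (SD, n = 6 each), a log2 fold change of 2.37 ± 0.49 (SE; edgeR adjusted p = 0.00782). Without GFPtotal 3, 4 and 5 it was 2.10 with an adjusted p of 0.0903, and without GFPlow 6 as well 1.91 with an adjusted p of 0.124. The gene lies on chromosome 18 at 38838673 to 38929404, minus strand, of GRCm38. In these bulk samples, fewer cells that express a gene and less RNA per cell cannot be told apart. The part of the GFPhigh cells, whose pericyte markers move with the groups, in the Fgf1 difference was not tested.

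**Figure D2:**
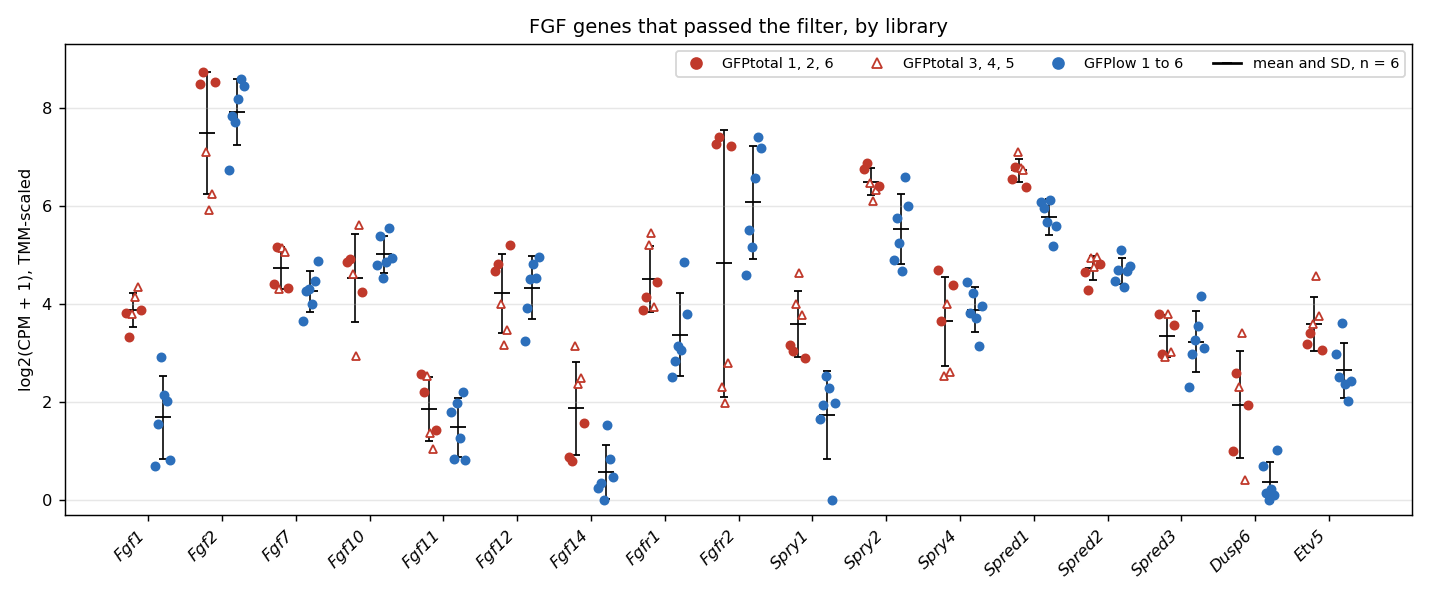
Level, as log2(CPM + 1), of the 17 members that passed the filter, with 1 point per library, GFPtotal in red left of GFPlow in blue, open triangles for GFPtotal 3, 4 and 5, and black lines for the mean and SD of 6 libraries on this scale. Fgf1, Spred1 and Spry1 show no overlap between the groups, Dusp6 overlaps, and in Fgf2 and Fgfr2 the open triangles lie below the other GFPtotal libraries.

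Fgf2, which encodes basic FGF, had the highest mean level per length of the ligands in both groups. In GFPtotal 4, however, Fgf7 lay above it, at 42.4% of the summed ligand level against 35.2% for Fgf2. Its level was 355, 421, 135, 59.2, 74.5 and 365 CPM in GFPtotal 1 to 6, against 105, 227, 207, 287, 381 and 346 CPM in GFPlow 1 to 6. GFPtotal 3, 4 and 5 were low, GFPtotal 1, 2 and 6 were high, and the GFPlow libraries spanned the space between and overlapped both. The highest GFPtotal library held 7.12 times the lowest, and the highest GFPlow library 3.63 times the lowest. Fgf2 averaged 235 ± 163 CPM in GFPtotal, against 259 ± 101 CPM in GFPlow, a log2 fold change of −0.14 ± 0.50 (SE; edgeR adjusted p = 0.918), and without GFPtotal 3, 4 and 5 the sign turned to 0.53. Of its exonic bases 13.2% are shared with other genes, among them Nudt6 on the opposite strand, and the counting did not use strand. Per kilobase of exon, Fgf2 made up 59.9 ± 22.2% of the summed level of all secreted and endocrine ligands in GFPtotal and 72.2 ± 6.33% in GFPlow (SD, n = 6 each). Fgf1 took 7.55 ± 4.78% in GFPtotal and 1.20 ± 1.10% in GFPlow.

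The stromal ligands Fgf7 and Fgf10, whose products signal to epithelium, were not called. Fgf7, keratinocyte growth factor, stood at 20.3, 34.6, 18.9, 34.2, 32.3 and 18.97 CPM in GFPtotal 1 to 6, against 11.5, 18.4, 18.7, 14.99, 21.03 and 28.2 CPM in GFPlow 1 to 6. Its groups overlapped, with GFPlow 6 above GFPtotal 1, 3 and 6. The log2 fold change of Fgf7 was 0.50 ± 0.26 (SE; edgeR adjusted p = 0.294). Fgf10 averaged 25.5 ± 13.7 CPM in GFPtotal, against 32.2 ± 9.12 CPM in GFPlow, a log2 fold change of −0.34 ± 0.34 (SE; edgeR adjusted p = 0.645). The level of Fgf10 ran from 6.63 CPM in GFPtotal 4 to 47.8 CPM in GFPtotal 5, against 22.3 to 45.8 CPM over the GFPlow libraries. Per kilobase of exon the means were Fgf7 at 8.17 ± 2.43 and Fgf10 at 5.54 ± 2.97 CPM per kilobase in GFPtotal, and Fgf7 at 5.79 ± 1.75 and Fgf10 at 6.997 ± 1.98 in GFPlow. In GFPtotal 4 they lay far apart, Fgf7 at 10.5 and Fgf10 at 1.44 CPM per kilobase.

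The other 11 secreted ligands were below the filter. Of these, 6 had counts. Fgf9, an epithelial and mesothelial ligand, had 32 counts over the GFPtotal libraries and 27 over the GFPlow libraries, and 30 of the 32 fell in GFPtotal 4. Fgf18 had 5 counts in GFPtotal and 11 in GFPlow, and Fgf17 had 4 counts in GFPtotal and 7 in GFPlow. Fgf5 and Fgf16 had 8 counts each in GFPtotal and 0 in GFPlow; 7 of those of Fgf5 and all of those of Fgf16 fell in GFPtotal 2. Fgf22 had 0 counts in GFPtotal and 2 in GFPlow. Fgf3, Fgf4, Fgf6, Fgf8 and Fgf20 had 0 counts in all 12 libraries, and so did the 3 endocrine ligands Fgf15, Fgf21 and Fgf23, which act at a distance with Klotho co-receptors. A count of 0 over all 179979126 counts allows up to 0.0167 CPM, counting error only.

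The intracellular FGF-homologous factors, Fgf11 to Fgf14, are related in sequence but are not secreted and bind voltage-gated sodium channels. Fgf11, Fgf12 and Fgf14 passed the filter and 0 of the 3 were called. Fgf14 stood at 0.851, 0.729, 7.86, 4.17, 4.66 and 1.96 CPM in GFPtotal 1 to 6, against 0.190, 0.282, 0, 1.89, 0.800 and 0.380 CPM in GFPlow 1 to 6. GFPtotal 3, 4 and 5 were the highest of all 12 libraries, and the groups overlapped, since GFPlow 4 lay above GFPtotal 1 and 2 and GFPlow 5 above GFPtotal 2. Its log2 fold change was 2.50 ± 0.86 (SE; edgeR adjusted p = 0.106), with an adjusted p of 0.0255 by DESeq2. Leaving out GFPtotal 3, 4 and 5 gave 0.97 with an adjusted p of 0.813 for Fgf14, and leaving out GFPlow 6 as well gave 0.87 with 0.853. Fgf12 averaged 20.0 ± 10.8 CPM in GFPtotal, against 20.6 ± 8.11 CPM in GFPlow, with a log2 fold change of −0.05 ± 0.37 (SE; edgeR adjusted p = 0.967). Within GFPtotal, Fgf12 was lowest in 4 and 5, at 7.98 and 10.1 CPM. Fgf11 was low in both groups, at 2.96 ± 1.72 CPM in GFPtotal, against 2.00 ± 1.20 CPM in GFPlow, a log2 fold change of 0.56 ± 0.57 (SE; edgeR adjusted p = 0.643). Fgf13 fell below the filter, with 56 counts in GFPtotal and 6 in GFPlow.

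The receptors Fgfr1 and Fgfr2 passed the filter, and 0 of the 2 were called. Fgfr2 stood at 151, 170, 3.93, 2.95, 5.92 and 149 CPM in GFPtotal 1 to 6, against 23.1, 44.8, 34.8, 94.3, 167 and 144 CPM in GFPlow 1 to 6. GFPtotal 3, 4 and 5 lay below every other library, and GFPtotal 1, 2 and 6 lay at the level of the 2 highest GFPlow libraries, 5 and 6. The highest GFPtotal library was 57.5 times the lowest, and the highest GFPlow library 7.22 times the lowest. These low values rest on 55, 48 and 89 counts. The averages were 80.4 ± 83.7 CPM in GFPtotal, against 84.6 ± 60.4 CPM in GFPlow, a log2 fold change of −0.07 ± 1.01 (SE; edgeR adjusted p = 0.981). Without GFPtotal 3, 4 and 5 it was 0.87 and without GFPlow 6 as well 1.08, neither of them called. The limma-voom value was −1.54, also not called (adjusted p = 0.477).

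Fgfr1 did not follow the pattern of Fgfr2. It stood at 13.7, 16.6, 35.8, 42.6, 14.2 and 20.9 CPM in GFPtotal 1 to 6, against 4.74, 6.16, 7.80, 7.38, 28.0 and 13.0 CPM in GFPlow 1 to 6. GFPtotal 3 and 4 were the highest of all libraries, GFPtotal 5 was next to the lowest of its group, and GFPlow 5 alone lay above 4 of the 6 GFPtotal libraries. The averages were 24.0 ± 12.3 CPM in GFPtotal, against 11.2 ± 8.71 CPM in GFPlow, a log2 fold change of 1.10 ± 0.43 (SE; edgeR adjusted p = 0.157). With GFPtotal 3, 4 and 5 left out, the value for Fgfr1 was 0.59 with an adjusted p of 0.693. Without GFPlow 5 it was 1.61 with an adjusted p of 0.0171, and Spry1 and Spry2 passed the threshold as well, so 5 members were called (4.46% of all genes higher).

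Scaled by exon length, the receptor makeup differed among the GFPtotal libraries. Of the summed Fgfr1 to Fgfr4 level per kilobase, Fgfr1 took 10.3%, 11.1%, 92.1%, 94.6%, 75.4% and 15.1% in GFPtotal 1 to 6, against 19.2%, 14.4%, 20.6%, 9.01%, 17.5% and 9.96% in GFPlow 1 to 6. Fgfr2 took 89.3%, 88.9%, 7.95%, 5.14%, 24.6% and 84.6% in GFPtotal 1 to 6, against 73.5%, 82.6%, 72.2%, 90.5%, 82.2% and 86.6% in GFPlow 1 to 6. Fgfr1 was thus the larger share in GFPtotal 3, 4 and 5, and Fgfr2 in the other 9 libraries. The receptor sum was 16.4, 18.5, 4.79, 5.55, 2.33 and 17.1 CPM per kilobase in GFPtotal 1 to 6, against 3.05, 5.26, 4.66, 10.1, 19.7 and 16.0 in GFPlow 1 to 6. GFPtotal 3, 4 and 5 therefore had sums inside the range of the lower GFPlow libraries or just below it, with another makeup. Marker sums moved with these libraries too. Pericyte markers summed to 1430.3 to 1671 CPM in libraries 3, 4 and 5 of GFPtotal and 942 to 1268 CPM in 1, 2 and 6. Smooth muscle markers summed to 649 to 757 CPM in libraries 3, 4 and 5 of GFPtotal and 398 to 466.1 CPM in 1, 2 and 6. Fibroblast markers summed to 20396 to 24470 CPM in libraries 3, 4 and 5 of GFPtotal and 33266 to 35772 CPM in 1, 2 and 6. Within that list the collagens Col1a1 and Col6a3 were lower in 3, 4 and 5 than in 1, 2 and 6. Lum was lower too, at 343 to 535 CPM in 3, 4 and 5 and 835 to 938 CPM in 1, 2 and 6. Pdgfra was instead higher, at 611 to 672 CPM in 3, 4 and 5 and 335 to 391.9 CPM in 1, 2 and 6. Fbln1 and Gsn were also higher in 3, 4 and 5, and Dcn slightly so (2275 to 2467 CPM, against 2219 to 2264 CPM in 1, 2 and 6). Col3a1, Mfap4 and Dpt overlapped. Epithelial markers summed to 7.86 to 13.2 CPM in libraries 3, 4 and 5 of GFPtotal and 2.23 to 6.26 CPM in 1, 2 and 6. Of the epithelial markers only Cdh1 parted these libraries, at 5.77 to 6.36 CPM in 3, 4 and 5 and 0.534 to 2.01 CPM in 1, 2 and 6. Epcam, Krt8, Krt18, Krt19, Krt7 and Esrp1 overlapped. The part of any of these marker differences in the receptor values was not tested.

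**Figure D3:**
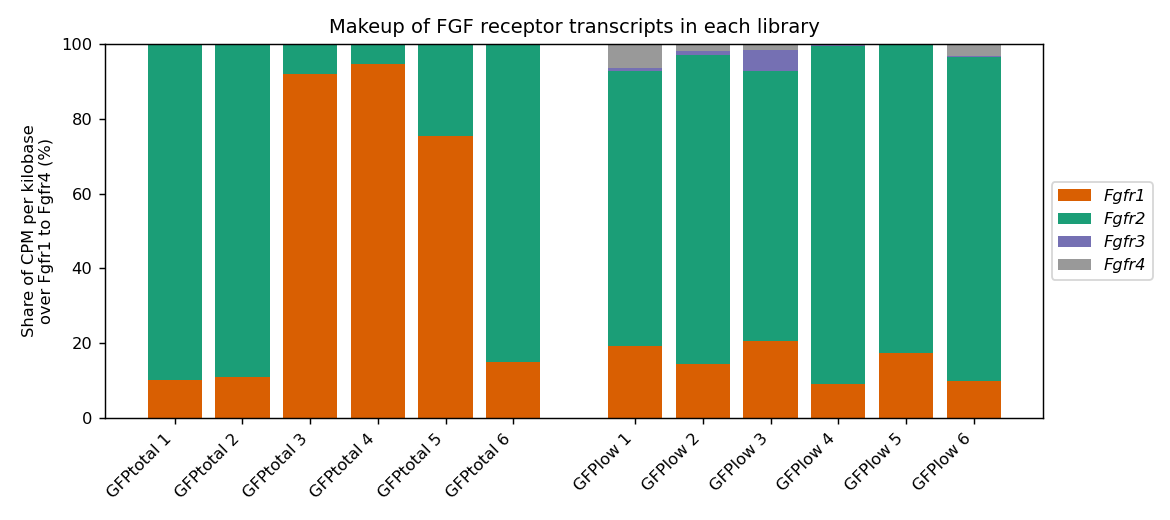
Share of each receptor gene in the summed Fgfr1 to Fgfr4 level per kilobase of exon (percent), 1 bar per library, GFPtotal left of GFPlow. Fgfr1 takes 75.4% to 94.6% in GFPtotal 3, 4 and 5, and Fgfr2 takes 72.2% or more in the other 9 libraries.

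Fgf2 and Fgfr2 ran together across the libraries. In GFPlow, both genes ranked the libraries in the same order, 1, 3, 2, 4, 6 and 5 going from low to high. In GFPtotal, both were low in 3, 4 and 5 and high in 1, 2 and 6. The pattern is a description over libraries that share preparation and sort and fall into separate clusters in GFPtotal, and no coefficient was computed. The gene model counted for Fgfr2 spans chromosome 7 from 130162451 to 133123350, minus strand. It shares 3.04% of its exonic bases with Ctbp2 on the same strand. Fgf2 lies on chromosome 3 at 37348346 to 37410108, plus strand.

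**Figure D4:**
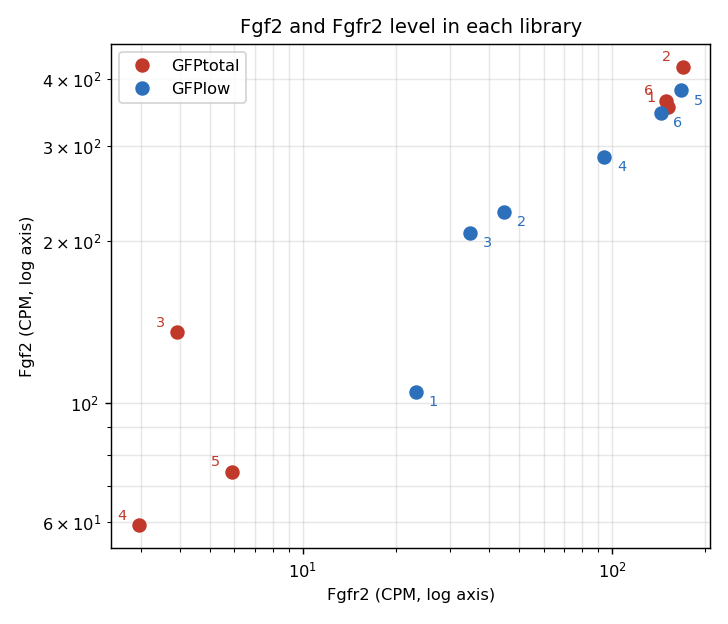
Fgf2 level against Fgfr2 level in each library (CPM, both log axes), with library numbers beside the points, GFPtotal in red and GFPlow in blue. GFPtotal 3, 4 and 5 lie at 2.95 to 5.92 CPM of Fgfr2, and GFPtotal 1, 2 and 6 lie beside GFPlow 5 and 6.

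The other 3 receptor genes were below the filter. Fgfr3 had 0, 0, 0, 2, 0 and 2 counts in GFPtotal 1 to 6, against 3, 8, 30, 4, 6 and 6 counts in GFPlow 1 to 6. Its GFPtotal libraries, at most 0.178 CPM, all lay below its GFPlow libraries, at least 0.190 CPM, but these are differences of a few counts in a gene that did not pass the filter. Fgfr4 had 4 counts in GFPtotal and 55 in GFPlow, of which 33 fell in GFPlow 6. Fgfrl1, a receptor that lacks the kinase domain, had 137 counts in GFPtotal, of which 98 fell in GFPtotal 5, and 53 counts in GFPlow. Fitted with no filter on low counts, the adjusted p (edgeR) was 0.166 for Fgfr3, 0.221 for Fgfr4 and 0.331 for Fgfrl1, so 0 of the 3 passed there either.

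Of the 9 feedback and ERK-induced genes, 8 passed the filter, and Spred1 and Dusp6 were called higher in GFPtotal. Spred1 encodes a membrane protein that recruits neurofibromin to switch RAS off. Its level was 92.8, 110, 136, 108, 105 and 82.9 CPM in GFPtotal 1 to 6, against 67.0, 61.5, 50.05, 69.0, 35.5 and 46.9 CPM in GFPlow 1 to 6. The groups did not overlap, with GFPtotal 6 the lowest of its group and GFPlow 4 the highest of its own. The averages were 106 ± 18.1 CPM in GFPtotal, against 55.0 ± 13.0 CPM in GFPlow, a log2 fold change of 0.94 ± 0.18 (SE; edgeR adjusted p = 0.00487). Without GFPtotal 3, 4 and 5 the value for Spred1 was 0.77 with an adjusted p of 0.0743, and without GFPlow 6 as well 0.73 with an adjusted p of 0.128. Its relatives gave no call: Spred2 averaged 25.9 ± 4.30 CPM in GFPtotal, against 24.9 ± 4.93 CPM in GFPlow (log2 fold change 0.05 ± 0.20, SE), and Spred3 averaged 9.54 ± 3.04 CPM in GFPtotal, against 9.13 ± 4.46 CPM in GFPlow (0.06 ± 0.35, SE).

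Dusp6 encodes the cytoplasmic phosphatase that removes phosphate from ERK. It had 13, 62, 55, 157, 5 and 32 counts in GFPtotal 1 to 6, against 10, 2, 0, 3, 1 and 19 counts in GFPlow 1 to 6. In CPM this was 1.00, 5.02, 3.93, 9.64, 0.333 and 2.85 in GFPtotal, against 0.632, 0.113, 0, 0.177, 0.0728 and 1.03 in GFPlow. GFPtotal 5 lay below GFPlow 1 and 6, and GFPtotal 1 just below GFPlow 6, so the groups overlapped, and GFPtotal 4 was the highest library. The averages were 3.80 ± 3.36 CPM in GFPtotal, against 0.338 ± 0.407 CPM in GFPlow, a log2 fold change of 3.44 ± 0.93 (SE; edgeR adjusted p = 0.0372). The Dusp6 call was lost in 7 of the 12 fits that left out 1 library, those without GFPtotal 2, 3 or 4 or without GFPlow 2, 3, 4 or 5, with adjusted p of 0.0550 to 0.109. The limma-voom fit did not call it (adjusted p = 0.101), nor did edgeR with GFPtotal 3, 4 and 5 left out (3.06, adjusted p = 0.204) or with those and GFPlow 6 left out (3.81, adjusted p = 0.0995). Without GFPlow 6 alone the log2 fold change was 4.19, with an adjusted p of 0.0247.

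The Sprouty genes encode cytoplasmic inhibitors of receptor tyrosine kinase signalling. Spry1 stood at 7.97, 7.29, 15.01, 23.8, 12.7 and 6.50 CPM in GFPtotal 1 to 6, against 2.15, 2.83, 4.78, 3.90, 0 and 2.93 CPM in GFPlow 1 to 6. Every GFPtotal library lay above every GFPlow library, yet the log2 fold change of 2.14 ± 0.62 (SE) gave an adjusted p of 0.0563 with edgeR, just above the threshold. DESeq2 gave an adjusted p of 0.00368 and limma-voom 0.0487, and without GFPlow 5, the library at 0, edgeR gave 1.88 with an adjusted p of 0.0124. Without GFPtotal 3, 4 and 5 the value for Spry1 was 1.37 with an adjusted p of 0.507. Of the exonic bases of Spry1 24.4% are shared with Gm42922 on the opposite strand. The counting did not use strand, so reads on the shared bases could not be told apart, and their effect on the Spry1 level was not tested. Spry1 lies on chromosome 3 at 37639947 to 37644598, plus strand.

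Spry2 had the highest mean level per length of the members in GFPtotal, at 43.3 ± 8.49 CPM per kilobase in GFPtotal and 24.1 ± 12.6 CPM per kilobase in GFPlow (SD, n = 6 each). Fgf2 was above Spry2 per length in GFPtotal 1, 2 and 6. Spry2 stood at 107, 116, 87.8, 68.0, 79.6 and 84.1 CPM in GFPtotal 1 to 6, against 29.0, 53.2, 37.0, 24.6, 95.04 and 62.8 CPM in GFPlow 1 to 6. GFPlow 5 lay above 4 of the GFPtotal libraries, and the other 5 GFPlow libraries lay below all GFPtotal libraries. The log2 fold change of Spry2 was 0.84 ± 0.28 (SE; edgeR adjusted p = 0.0944), and without GFPlow 5 it was 1.12 with an adjusted p of 0.0131. Spry4 had the closest averages of the 3 Sprouty genes, at 13.5 ± 8.01 CPM in GFPtotal, against 14.4 ± 4.52 CPM in GFPlow, with a log2 fold change of −0.09 ± 0.39 (SE; edgeR adjusted p = 0.931). Spry4 lies beside Fgf1 on chromosome 18, at 38586268 to 38601268, minus strand.

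Etv5, an ETS transcription factor that ERK induces, stood at 8.12, 9.55, 11.01, 22.9, 12.4 and 7.30 CPM in GFPtotal 1 to 6, against 6.89, 4.69, 11.2, 4.13, 3.06 and 4.40 CPM in GFPlow 1 to 6. All GFPlow libraries but 3 lay below all GFPtotal libraries, and GFPtotal 4 was the highest. The log2 fold change of Etv5 was 1.05 ± 0.38 (SE; edgeR adjusted p = 0.123), and 0.52 with GFPtotal 3, 4 and 5 left out (adjusted p = 0.722). Etv4, its close relative, was below the filter with 7 counts in GFPtotal and 42 in GFPlow, and 29 of the 42 fell in GFPlow 6. The mesothelial marker sum was also highest in GFPlow 6, made up of Muc16 at 9.29 CPM and Krt19 at 3.58 CPM. The defining mesothelial markers Msln, Upk3b, Lrrn4 and Upk1b were at 0 there.

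Genes that carry, modify or pass on the FGF signal were read from 4 further lists. Over all genes tested, 4.55% were called higher and 0.854% lower, and no list was tested as a set. Receptor cofactors and ligand carriers had 1 gene called higher and 1 lower among 16 tested (median log2 fold change 0.25). Flrt2, a membrane protein whose family binds FGF receptors, averaged 181 ± 25.9 CPM in GFPtotal, against 82.1 ± 32.5 CPM in GFPlow without overlap, a log2 fold change of 1.14 ± 0.24 (SE; edgeR adjusted p = 0.00880), and it was called in all 20 other settings tried. Sdc4, a syndecan that presents heparan sulphate at the cell surface, averaged 19.7 ± 7.35 CPM in GFPtotal, against 44.0 ± 19.8 CPM in GFPlow, a log2 fold change of −1.16 ± 0.32 (SE; edgeR adjusted p = 0.0388). The Sdc4 call ended without GFPlow 6 (−0.95, adjusted p = 0.105), and also without GFPtotal 2, 3, 5 or 6 or GFPlow 2, 3 or 4, and it was made in 10 of the 20 other settings.

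Heparan sulphate enzymes had 2 genes called higher and 1 lower among 11 tested (median 0.23), beside 4.55% and 0.854% of all genes. Ndst3, which sulphates the nitrogen of the chain's glucosamine units, averaged 29.3 ± 12.6 CPM in GFPtotal, with 17.5 to 49.2 over its libraries, and 1.58 ± 1.71 CPM in GFPlow, with 0.163 to 4.87. Its log2 fold change was 4.22 ± 0.61 (SE; edgeR adjusted p = 0.000765), 3.59 without GFPtotal 3, 4 and 5, and 4.99 without GFPlow 1, and Ndst3 was called in all 20 other settings. Sulf2, an extracellular enzyme that removes sulphate at position 6 of glucosamine, averaged 145 ± 22.3 CPM in GFPtotal, against 86.9 ± 26.6 CPM in GFPlow (log2 fold change 0.73 ± 0.19, SE; edgeR adjusted p = 0.0306). Extl3, which starts the chain, averaged 43.3 ± 8.77 CPM in GFPtotal, against 73.8 ± 17.1 CPM in GFPlow (log2 fold change −0.77 ± 0.19, SE; edgeR adjusted p = 0.0274). Both were called in 11 of the 20 other settings. The Sulf2 call ended when any of GFPtotal 3 and 4 and GFPlow 1 to 4 was left out and with scaling by total counts (adjusted p = 0.0789), and the Extl3 call when any of GFPtotal 3 and 5 and GFPlow 2, 3, 4 and 6 was (adjusted p = 0.0684 without GFPlow 6). Neither was called without GFPtotal 3, 4 and 5 together.

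Adaptors and kinases of the ERK cascade had 0 genes called among 23 tested (edgeR, median −0.04), beside 4.55% of all genes higher and 0.854% lower. Of the 23, 5 had an unadjusted p under 0.05, against 19.9% of all genes, and DESeq2 and limma-voom called 2 each. Frs2, the adaptor that docks on FGF receptors, averaged 116 ± 11.5 CPM in GFPtotal, against 105 ± 10.2 CPM in GFPlow, a log2 fold change of 0.15 ± 0.13 (SE; edgeR adjusted p = 0.584). Nras, a RAS protein, averaged 124 ± 19.4 CPM in GFPtotal, against 170 ± 9.83 CPM in GFPlow, with a log2 fold change of −0.46 ± 0.13 (SE; edgeR adjusted p = 0.0551) and no overlap, where 0.806% of all genes lay wholly below. Nras was called in 4 of the 20 other settings, DESeq2 and limma-voom among them.

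Other ERK feedback and target genes had 2 called higher and 0 lower among 11 tested (median 0.32), beside 4.55% and 0.854% of all genes. Etv1, the third ETS factor of the Etv4 and Etv5 group, averaged 47.2 ± 28.7 CPM in GFPtotal, with 17.8 to 81.3 over its libraries, and 9.34 ± 3.14 CPM in GFPlow, with 6.79 to 15.3. Its log2 fold change was 2.34 ± 0.39 (SE; edgeR adjusted p = 0.00185), and without GFPtotal 3, 4 and 5 it was 1.18 with an adjusted p of 0.0753. Egr1, an immediate early transcription factor, averaged 890 ± 157 CPM in GFPtotal, against 580 ± 108 CPM in GFPlow, a log2 fold change of 0.62 ± 0.15 (SE; edgeR adjusted p = 0.0267). With those 3 libraries left out, the value for Egr1 was 0.42 with an adjusted p of 0.255, and leaving out GFPtotal 3 or 4 or GFPlow 3 or 4 alone, or scaling by total counts (adjusted p = 0.103), also ended its call. Flrt2 and Ndst3 were the calls left in the 4 lists when GFPtotal 3, 4 and 5 were left out together.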

How the data were processed

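Bulk RNA of sorted uterine cells was sequenced in 12 libraries, 6 GFPtotal and 6 GFPlow. The deposited values are counts of reads for each gene, not normalised. Per the headers of the files, paired fragments were counted over exons with featureCounts 1.6.4, by gene of Ensembl release 84, at a mapping quality of at least 10 and without strand. The submitters' processing notes name cutadapt, SAMtools and GRCm38; no source used here gives the aligner. The deposited series table held the same counts in 12 of 12 libraries.

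After filterByExpr, edgeR 4.0.16 (R 4.3.3) was run with TMM scaling and its robust quasi-likelihood test (two-sided), GFPtotal minus GFPlow, with Benjamini-Hochberg adjustment over all 14523 genes tested and 0.05 as the threshold. CPM are counts scaled by TMM-adjusted library totals, CPM per kilobase are divided by exonic length, and the SE is the log2 fold change divided by the square root of F. The fit was tested on simulated data. Alternatives were DESeq2 1.42.0, limma-voom (limma 3.58.1), other scaling, no filter, a replicate block and leaving out libraries. Leaving out GFPtotal 3, 4 and 5, with or without GFPlow 6, was chosen after seeing the data. Summed markers were tested over 924 assignments of labels.

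No pair of libraries agreed within sampling noise: the chi-square per degree of freedom was at least 20.9 in GFPtotal and 27.4 in GFPlow. All members and lists were chosen with earlier results of these data known. All members are named; those called, or without overlap between groups, have values in every library. Fgf2, Fgfr1, Fgfr2, Fgf7, Fgf14, Spry2 and Etv5 were given in full after their values had been seen. From the 4 lists, called genes are named (at most 6 a list), or the 2 most abundant per length where none was called. Promoters are from RefSeq (GRCm38.p6), with an entry for 27 of the 36 genes.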

Additional observations from a re-analysis of the deposited data

Results flagged for a closer look

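In 6 of 43 groups of 6 libraries tested, 1 library stood apart from the others of its group by Dixon's criterion, which chance meets in about 1 in 20 groups. Fgfr1 was 28.0 CPM in GFPlow 5, where the next GFPlow library held 13.0 CPM, and Etv5 was 22.9 CPM in GFPtotal 4, where the next GFPtotal library held 12.4 CPM. The other 4 rest on few counts. Fgfrl1 was 6.52 CPM in GFPtotal 5 with 0.980 CPM in the next library, and Fgf9 was 1.84 CPM in GFPtotal 4 with 0.133 CPM in the next. Fgfr3 was 1.89 CPM in GFPlow 3 with 0.452 CPM in the next library, and Etv4 was 1.575 CPM in GFPlow 6 with 0.472 CPM in the next. GFPlow 6 is the library whose file header names its input alignment with a GFPtotal-type code.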

How the results depend on the processing

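Of the 36 genes, 19 had too few counts to pass the filter, and 8 of these had 0 counts in every library. Over all genes, 785 were called, against 1384 with DESeq2, 295 without GFPtotal 3, 4 and 5, 286 without those and GFPlow 6, and 467 to 970 with 1 library left out (467 without GFPtotal 3, 521 without GFPtotal 4). The count of FGF genes called higher was 3, against 5 with DESeq2, 0 without GFPtotal 3, 4 and 5, 0 without those and GFPlow 6, and 2 to 5 with 1 library left out. The count called lower was 0 in every setting run, 0 to 0 with 1 library left out. On the 4 lists of related genes 7 were called, against 11 with limma-voom, 2 without GFPtotal 3, 4 and 5, 3 without those and GFPlow 6, and 3 to 8 with 1 library left out. No pairing by replicate number was seen: same-numbered deviations correlated at −0.14 to 0.09, and 2 of 6 numbers correlated best with their own. The check cannot exclude a pairing, because GFPtotal 3, 4 and 5 stood apart from the rest of their group. With a replicate block, 582 genes were called over all genes, 2 FGF genes higher and 4 genes of the lists; Dusp6 (adjusted p = 0.0891), Egr1 (0.0954), Sulf2 (0.0802) and Extl3 lost their calls, and the uncalled Fgfr2 moved to −1.38.

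The uncalled members with a log2 fold change near 0 changed sign; the cause was not tested. Without GFPtotal 3, 4 and 5, and then without GFPlow 6 as well, Fgf12 was 0.47 and 0.61, Fgf2 0.53 and 0.63, Fgfr2 0.87 and 1.08, Spry4 0.36 and 0.37, and Spred2 −0.12 and −0.11. Spred2 was −0.0024 with total library size as the scaling. With 1 library left out, the log2 fold changes ran from −0.29 to 0.12 for Fgf12, −0.39 to 0.062 for Fgf2, −0.43 to 0.24 for Fgfr2, −0.36 to 0.080 for Spry4, −0.019 to 0.15 for Spred2 and −0.094 to 0.33 for Spred3.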
